A study of Mus musculus with 33 samples.

Results

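The genes described here are 10 neuronal activity immediate early genes, *Fos*, *Fosb*, *Npas4*, *Arc*, *Nr4a1*, *Egr1*, *Egr2*, *Egr4*, *Junb* and *Ier2*, in bulk RNA-seq libraries of the mouse hypothalamus. They were found by symbol among 41565 named entries of the deposited expression table, and all 10 were present and passed the filter on low values in all 33 libraries. The 10 genes were chosen because of measured values: an earlier pass over these libraries had shown differences of immediate early genes between the groups. Their levels and their differences between groups are therefore given as a description, with no *P* value. How many of them were called in the fit over all genes is given once, beside the share of all genes called, and nothing is read from it.

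The libraries came from the posterior hypothalamus (PH, 16 libraries) and the preoptic area (POA, 17 libraries) of adult wild-type female mice, in 3 groups per region. Intact mice, with 4 PH and 5 POA libraries, were killed in diestrus with their ovaries in place, and the other mice 14 days or 4 months after ovariectomy (OVX), with 6 libraries per region and time. OVX removes the ovarian source of estrogen and progesterone abruptly, and the labels name no hormone or other treatment. Titles of the control libraries read sham, whereas their group label and the study's methods say intact, and 1 POA library placed at 14 days by its title carries the bare number 14 as its group label. Mice of the 4-month group had also aged longest after surgery, so time after OVX and age cannot be told apart, and no intact mice of matched age were included. The labels name 2 batches, and each of them holds 2 or 3 libraries per group. The sources do not say whether PH and POA libraries with the same number came from the same mouse.

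Immediate early genes are transcribed within minutes of a stimulus, without new protein synthesis, when calcium entry, cAMP or growth factor signaling activates transcription factors that already sit in the nucleus, such as CREB and SRF. Most encode transcription factors themselves, which then switch on slower genes of synapses, peptides and feedback control. In the hypothalamus, their mRNA and protein are widely used as marks of recently active neurons, and they also respond to stress, handling and the circadian time of the animal. Neither the labels nor the methods used here give the hour at which the tissue was taken.

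The deposited values are a normalized signal on a linear scale and not counts, and an unexpressed gene reads about 22.2, the floor of the table, instead of 0. Differences are given as log2 fold changes, from limma on the log2 values of a region with its 3 groups and the first surrogate variable (SV1), a hidden factor estimated from all genes. The authors' table does not keep differences in level between the regions, so levels are compared only within a region, and levels of different genes, which are not per length, are not compared. Sums of the deposited values lay between 44.5 and 72.9 per library in mega units (median 50.2), but these are not read totals, and the depth is unknown. One library stood apart, PH replicate 5 at 14 days, with the highest sum and an SV1 score of 0.785 against at most 0.195 for the other PH libraries. Of the 20 listed hypothalamus markers, 19 were above 2 times the floor in every library, as were 12 of 12 neuron markers. In dissected tissue, fewer cells of a type and less RNA per cell cannot be told apart.

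Promoter sequence is shown first, since most of these genes are textbook targets of the same signals. RefSeq windows of the mouse (GRCm39), from 250 bases before to 50 bases after a start site, were at hand for 7 of the 10 genes, *Fos*, *Fosb*, *Npas4*, *Nr4a1*, *Egr2*, *Egr4* and *Junb*, in 11 windows. *Arc*, *Egr1* and *Ier2* had no entry. Each window was read 5′ to 3′ on the gene's strand, and its letters were matched once to the genome. The windows of *Fos* (chr12:85520414-85520713, plus strand), *Npas4* (chr19:5039950-5040249, minus strand), *Nr4a1* (chr15:101164477-101164776, plus strand), *Junb* (chr8:85705328-85705627, minus strand) and *Egr2* (window 3 of 5, chr10:67373449-67373748, plus strand) are printed. Gene positions given with the genes are those of GENCODE M39 on the same build. Capitals mark TGACG, the core of the cAMP response element to which CREB binds, on either strand, and in *Egr2* also a CArG box, the element of SRF.
Fos: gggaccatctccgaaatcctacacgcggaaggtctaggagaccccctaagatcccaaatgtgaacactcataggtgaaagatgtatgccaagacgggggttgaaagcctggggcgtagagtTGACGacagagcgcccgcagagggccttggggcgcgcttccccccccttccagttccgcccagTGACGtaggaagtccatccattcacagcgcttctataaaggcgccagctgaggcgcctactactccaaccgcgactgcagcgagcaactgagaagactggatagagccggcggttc
Npas4: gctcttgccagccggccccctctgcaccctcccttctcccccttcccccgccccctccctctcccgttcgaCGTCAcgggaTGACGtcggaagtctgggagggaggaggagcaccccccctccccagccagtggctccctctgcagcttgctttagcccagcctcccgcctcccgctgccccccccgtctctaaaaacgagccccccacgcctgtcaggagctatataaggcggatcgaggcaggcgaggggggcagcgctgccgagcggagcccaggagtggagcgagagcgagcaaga
Nr4a1: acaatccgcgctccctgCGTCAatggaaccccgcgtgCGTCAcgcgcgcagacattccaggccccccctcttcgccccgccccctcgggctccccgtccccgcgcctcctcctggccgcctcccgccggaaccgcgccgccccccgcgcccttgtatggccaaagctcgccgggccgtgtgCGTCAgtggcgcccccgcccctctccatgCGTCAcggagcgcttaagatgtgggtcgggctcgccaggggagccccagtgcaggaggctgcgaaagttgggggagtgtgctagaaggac
Junb: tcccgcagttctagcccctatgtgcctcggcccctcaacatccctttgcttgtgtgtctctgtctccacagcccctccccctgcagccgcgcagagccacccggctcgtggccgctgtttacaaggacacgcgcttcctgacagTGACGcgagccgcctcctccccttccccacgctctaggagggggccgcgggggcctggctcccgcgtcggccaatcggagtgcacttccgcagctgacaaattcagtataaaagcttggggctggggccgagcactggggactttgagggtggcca
Egr2: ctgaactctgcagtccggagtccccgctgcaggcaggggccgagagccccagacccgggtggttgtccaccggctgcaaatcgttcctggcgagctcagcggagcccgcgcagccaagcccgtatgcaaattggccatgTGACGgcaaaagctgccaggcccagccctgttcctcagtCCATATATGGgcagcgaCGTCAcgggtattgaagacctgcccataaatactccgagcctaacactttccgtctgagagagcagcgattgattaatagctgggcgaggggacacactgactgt

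TGACG, searched on both strands, was found at least once in 7 of the 7 genes and in 9 of the 11 windows, whereas 20.8% of all 32851 mouse promoter windows of this length hold it. In *Nr4a1* it occurred 4 times, with first bases 233, 213, 69 and 40 bases before the start site. In *Fos* it occurred 129 and 66 bases before the start, in *Npas4* 179 and 169 bases before it, and in *Junb* once, 106 bases before it. The CArG box was found in 4 windows of *Egr2* and in none of the other 6 genes, against 1.63% of all windows. Windows 3, 4 and 5 of *Egr2* overlap and hold the same TGACG and CArG matches, so these counts of windows take 1 stretch 3 times. The full palindrome TGACGTCA, which contains TGACG on both strands, occurred in none of the 11 windows and in 1.79% of all. These are matches of letters in short windows, which miss any element more than 250 bases before a start site, and binding was not measured. The *Nr4a1* window lies at a start site 12747 bases downstream of the outermost annotated start of that gene, and that of *Npas4* 345 bases downstream.

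Across the groups, the 10 genes did not differ in a single direction. *Npas4*, *Nr4a1*, *Junb*, *Ier2* and *Arc* had their highest group mean at 4 months after OVX in both regions, although the PH difference of *Arc* was near 0 without 2 libraries described with the cortex markers, and *Npas4* had the largest fitted difference from intact mice, 0.90 for the PH and 0.74 for the POA. In the POA, both times after OVX gave lower values of *Egr1* and *Fosb* than the intact group, with log2 differences of -0.71 and -0.49 for *Egr1*. *Fos* itself, the gene most used as a mark of active neurons, differed from intact mice by no more than 0.24 on the log2 scale in any of the 4 comparisons. At 14 days in the POA, 10 of 10 genes had a negative fitted difference, with a median of -0.44 where the median of all 21320 genes tested was -0.0059. The sign did not hold in each batch. *Fos* and *Fosb* were at 0.22 and 0.076 in batch 1 there, and at -0.59 and -0.88 in batch 2.

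**Figure D1:**
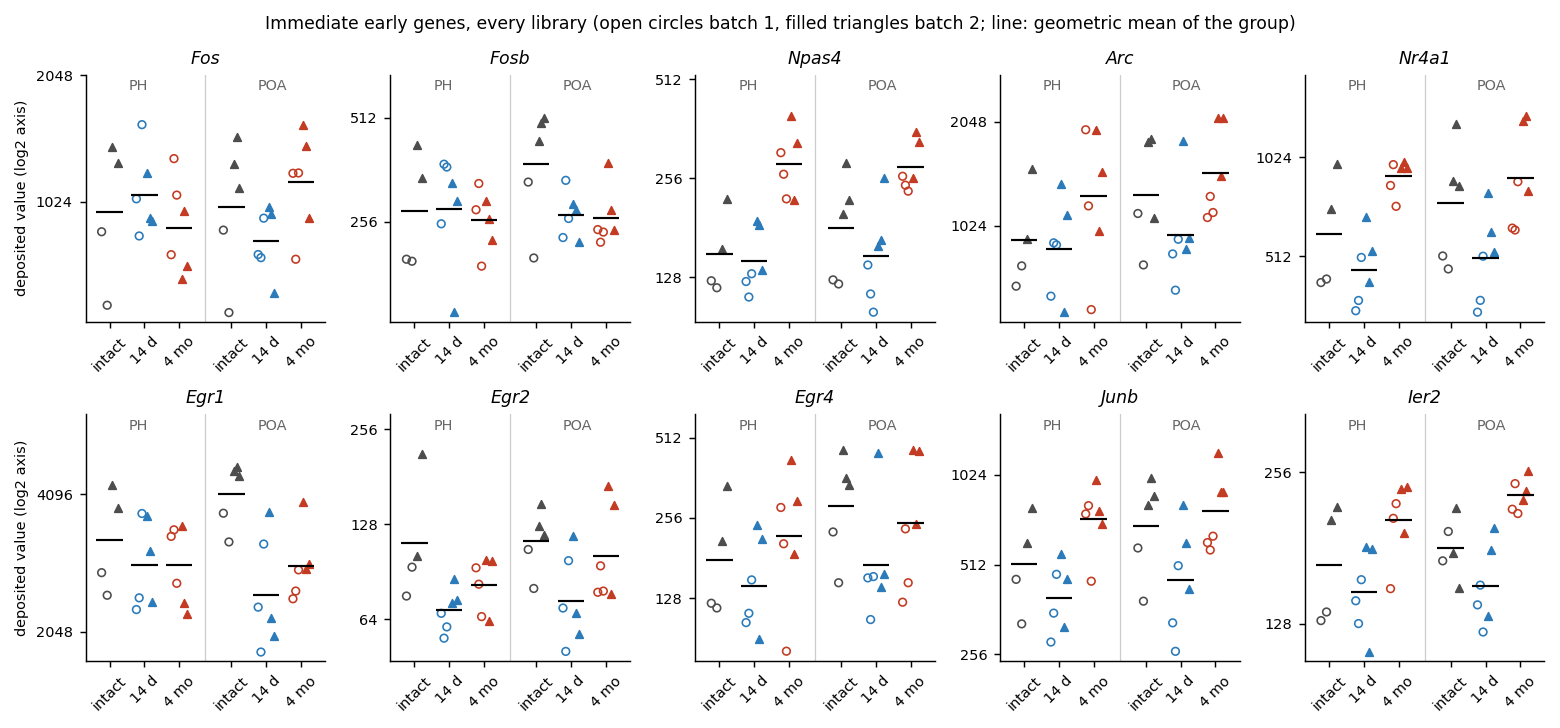
Deposited values (log2 axis) of the 10 genes in all 33 libraries, by region and group, with batch 1 as open circles, batch 2 as filled triangles and a line at the geometric mean of each group. For *Npas4* in the PH, the 4-month libraries lie between 221 and 396, above every 14-day library, and in most panels the intact libraries of batch 2 lie above those of batch 1.

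*Npas4* (chromosome 19, 5034382 to 5040344, minus strand) encodes a neuron-specific transcription factor that is induced by calcium entry and adjusts the inhibitory synapses a neuron receives. In the PH, its deposited values in intact mice were 125 and 119 in batch 1 and 156 and 222 in batch 2. They ranged from 112 to 189.7 (median 133) at 14 days and from 221 to 396 (median 285) at 4 months. The lowest 4-month library lay above the highest 14-day library, and 2 of the 6 lay just below the highest intact library. The mean was 155 ± 47.2 (SD, n = 4) in intact mice and 289.6 ± 67.97 (SD, n = 6) at 4 months, and the fitted log2 fold change was 0.90 ± 0.207 (SE) at 4 months and -0.049 ± 0.213 at 14 days against intact mice. Without intact replicate 4, the 14-day difference was 0.12. The difference between the times was 0.95 ± 0.197, a fold of 1.94, and 0.96 without PH 14-day replicate 5, the library that stood apart.

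POA libraries showed a similar course of *Npas4*. Intact values were 126 and 122 in batch 1 and 199, 285 and 220.3 in batch 2, those at 14 days ran from 100.3 to 256 (median 149), and those at 4 months from 234 to 354 (median 259). Here 4 of 6 libraries at 4 months exceeded every 14-day library and 2 of 6 every intact library, so the groups overlapped. Fitted log2 fold changes were 0.74 ± 0.137 against intact mice and 0.91 ± 0.13 against 14 days. Within batches, the 4-month mean exceeded the intact mean by 0.99 in batch 1 and 0.42 in batch 2 in the POA and by 1.10 in batch 1 and 0.72 in batch 2 in the PH.

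*Nr4a1* (chromosome 15, 101151980 to 101172681, plus strand), an orphan nuclear receptor induced by cAMP and calcium, followed the same order of groups. Its intact PH values were 426 and 437 in batch 1 and 713 and 972 in batch 2, against 350.0 to 672 (median 468) at 14 days and 726 to 987 (median 949) at 4 months. All 6 libraries at 4 months lay above all 6 at 14 days, and 1 of them above every intact library. The fitted log2 fold change between the times was 0.80 ± 0.173 and that from intact to 4 months 0.55 ± 0.183, whereas it was -0.24 ± 0.188 at 14 days. Without intact replicate 4, the highest intact library, the 14-day difference was -0.062 and that at 4 months 0.76, and without replicate 5 at 14 days the difference between the times was 0.80.

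Intact POA values of *Nr4a1* were 513 and 469 in batch 1 and 867, 1292 and 837 in batch 2. At 14 days they ran from 346 to 797 (median 520.4) and at 4 months from 615 to 1361 (median 836), with 4 of 6 libraries at 4 months above every 14-day library. Fitted differences were -0.43 ± 0.191 at 14 days, 0.39 ± 0.191 at 4 months and 0.82 ± 0.18 between the times. The position of the intact group between the times depended on the batch. In the PH, 4-month libraries exceeded intact ones by 0.96 in batch 1 and 0.21 in batch 2, and in the POA by 0.50 in batch 1 and 0.21 in batch 2.

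*Junb* (chromosome 8, 85701113 to 85705359, minus strand) encodes a partner of FOS proteins in AP-1, the dimeric transcription factor. Intact PH libraries had 457 and 324 in batch 1 and 603 and 792 in batch 2, the 14-day libraries 282 to 554 (median 405) and the 4-month libraries 450.5 to 984 (median 767). At 4 months, 5 of 6 libraries lay above every 14-day library, the exception being replicate 3 at 450.5. Fitted log2 fold changes of *Junb* in the PH were -0.24 ± 0.211 at 14 days, 0.45 ± 0.205 at 4 months and 0.69 ± 0.194 between the times (0.69 without 14-day replicate 5). Without intact replicate 4, the 14-day difference was -0.089.

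For *Junb* in the POA, intact values were 582 and 386 in batch 1 and 809, 998 and 866 in batch 2, with 262 to 811 (median 465) at 14 days and 573 to 1214 (median 766) at 4 months. The 4-month and 14-day groups overlapped, although within either batch every 4-month library was above every 14-day library. The fitted difference was -0.49 ± 0.213 at 14 days, 0.29 ± 0.213 at 4 months and 0.78 ± 0.201 between the times. *Junb* overlaps *Prdx2* on the opposite strand. The library kit marks strand, but whether the authors' quantification used it is not given in the sources used here, so the split of reads between the 2 genes is uncertain. *Nr4a1*, *Egr2* and *Egr4* overlap noncoding genes, on the opposite strand and for *Nr4a1* also on its own, with the same limit.

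*Ier2* (chromosome 8, 85387960 to 85389483, minus strand) encodes a small, growth factor-inducible nuclear protein. Its intact PH values were 129.7 and 135 in batch 1 and 206 and 219 in batch 2, and it ranged from 112 to 182 (median 149) at 14 days and from 150.2 to 239.7 (median 215) at 4 months. In the POA, *Ier2* was at 171 and 195 in batch 1 and 177, 218 and 150.4 in batch 2 in intact mice, at 123 to 198 (median 146) at 14 days and at 212 to 257 (median 230.2) at 4 months. All 6 POA libraries at 4 months lay above all 6 at 14 days and 4 of them above every intact library, the narrowest group of values among the 10 genes in that region relative to its mean. Fitted differences between the times were 0.61 ± 0.113 in the POA and 0.32 ± 0.141 in the PH. Against intact mice, 4-month libraries differed by 0.38 ± 0.119 in the POA and 0.26 ± 0.148 in the PH.

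*Arc* (chromosome 15, 74540932 to 74544419, minus strand) encodes a postsynaptic protein that promotes removal of AMPA receptors, and its mRNA travels into dendrites. Intact PH libraries had 686 and 785 in batch 1 and 938 and 1493 in batch 2, the 14-day libraries 576 to 1352 (median 909) and the 4-month libraries 586 to 1944 (median 1317). The spread at 4 months covered nearly all of both other groups, and the fitted difference of 0.36 ± 0.256 from intact mice was small against it. In the POA, intact values were 1112 and 789.7 in batch 1 and 1794, 1830.3 and 1081 in batch 2, with 667 to 1798 (median 908) at 14 days and 1083 to 2105 (median 1336) at 4 months. Here the fitted difference was -0.29 ± 0.214 at 14 days, 0.32 ± 0.215 at 4 months and 0.61 ± 0.203 between the times. A single 14-day library, replicate 4, lay at the top of that group, and the next was at 942.5.

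*Egr1* (chromosome 18, 34992876 to 34998049, plus strand), a zinc finger factor of synaptic plasticity, showed another order. Its POA values in intact mice were 3720.2 and 3219 in batch 1 and 4609, 4690.2 and 4496 in batch 2. They were 1847 to 3749 (median 2253) at 14 days and 2416 to 3935 (median 2799.9) at 4 months. Below every intact library lay 5 of 6 libraries at 14 days and 5 of 6 at 4 months, the exception at each time being replicate 4. Fitted log2 fold changes were -0.71 ± 0.173 and -0.49 ± 0.173, folds of 0.613 and 0.712. Within batches, the 14-day difference was -0.53 in batch 1 and -0.85 in batch 2, and that at 4 months -0.43 in batch 1 and -0.54 in batch 2.

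In the PH, the groups were not ordered in this way. Intact values of *Egr1* there were 2756 and 2459 in batch 1 and 4287 and 3816 in batch 2, those at 14 days 2288 to 3715 (median 2750.1) and those at 4 months 2239 to 3492 (median 2961). All 3 groups overlapped, and the fitted differences from intact mice were -0.17 ± 0.201 and -0.19 ± 0.196. Their sign turned with the batch, at 0.25 in batch 1 and -0.61 in batch 2 for 4 months. Whether the difference of *Egr1* from intact mice varied between the regions was not tested.

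*Egr2* (chromosome 10, 67371305 to 67378018, plus strand), a factor known from myelinating Schwann cells and induced in neurons by activity, was lowest at 14 days in both regions. In the PH, intact libraries had 75.7 and 93.5 in batch 1 and 101 and 213 in batch 2, the 14-day libraries 55.7 to 85.9 (median 69.5) and the 4-month libraries 62.9 to 98.4 (median 87.8). At 14 days, 5 of 6 libraries lay below every intact library, and the fitted difference was -0.67 ± 0.237, compared with -0.45 ± 0.231 at 4 months. Intact replicate 4 had the highest PH value, and without it these differences were -0.39 and -0.13. Without replicate 5 at 14 days, the 14-day difference was -0.74. POA values were 106 and 80.03 in batch 1 and 126, 149 and 118 in batch 2 in intact mice, 50.6 to 118 (median 68.02) at 14 days and 76.9 to 168 (median 86.5) at 4 months, and the fitted differences were -0.58 ± 0.236 and -0.11 ± 0.237. *Egr2* came closest of the 10 genes to the floor, with a lowest value of 2.28 times the floor, so that its fold changes may be understated on this scale. The lowest values of *Egr4*, *Npas4*, *Ier2* and *Fosb* were 3.65, 4.53, 5.06 and 6.31 times the floor, and the same may hold for them.

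*Egr4* (chromosome 6, 85485678 to 85490675, minus strand), a related zinc finger factor induced in neurons, had the widest spread, with its highest value 5.70 times its lowest. It was at 122 and 117 in batch 1 and 209.6 and 336 in batch 2 in intact PH libraries, at 90.2 to 241 (median 131) at 14 days and at 80.8 to 423 (median 242) at 4 months. In the POA, these values were 227 and 146 in batch 1 and 458, 362 and 340.2 in batch 2, then 106 to 447 (median 153) and 123 to 461 (median 238). The groups overlapped in both regions. Fitted PH differences from intact mice were -0.041 ± 0.315 and 0.21 ± 0.306, and fitted POA differences -0.59 ± 0.321 and -0.055 ± 0.322. At 14 days in the POA, 5 libraries lay at or below 157.7, and replicate 4 at 447.3.

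*Fos* (chromosome 12, 85520658 to 85524047, plus strand) encodes the AP-1 subunit whose protein is stained to map active neurons. Its values in intact PH libraries were 868 and 580.4 in batch 1 and 1384 and 1262 in batch 2, and they ran from 848 to 1561 (median 989) at 14 days and from 669 to 1296 (median 868) at 4 months. None of the 4-month libraries lay outside the intact range, and the fitted difference was -0.13 ± 0.251. Intact POA libraries had 876 and 558 in batch 1 and 1255, 1459 and 1100.5 in batch 2, the 14-day libraries 619.6 to 993 (median 851) and the 4-month libraries 747 to 1560.2 (median 1197). Fitted differences in the POA were -0.22 ± 0.221 at 14 days, 0.24 ± 0.221 at 4 months and 0.47 ± 0.209 between the times, and 4 of 6 libraries at 4 months lay above every 14-day library. Differences from intact mice depended on the batch, at 0.52 in batch 1 and -0.77 in batch 2 for 4 months in the PH.

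*Fosb* (chromosome 7, 19036621 to 19043976, minus strand) gives rise to a full-length factor and to the stable, truncated ΔFosB that accumulates with repeated stimulation. The table holds 1 value per gene, so these forms are not separated. In the POA, *Fosb* was at 334 and 201 in batch 1 and 438, 495 and 513 in batch 2 in intact mice, at 223 to 337 (median 269.5) at 14 days and at 223 to 378 (median 242) at 4 months. Its fitted difference was nearly the same at both times, at -0.45 ± 0.191 and -0.47 ± 0.191. The 3 intact libraries of batch 2 lay above all 12 POA libraries after OVX, whereas those of batch 1 did not, with 1 among them and 1 below them all, and the within-batch difference at 4 months was -0.14 in batch 1 and -0.71 in batch 2. In the PH, *Fosb* was at 199 and 197 in batch 1 and 427 and 343 in batch 2 in intact mice, 139.9 to 376 (median 312) at 14 days and 190.3 to 330.4 (median 269) at 4 months, with fitted differences of 0.22 ± 0.198 and -0.14 ± 0.193.

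**Figure D2:**
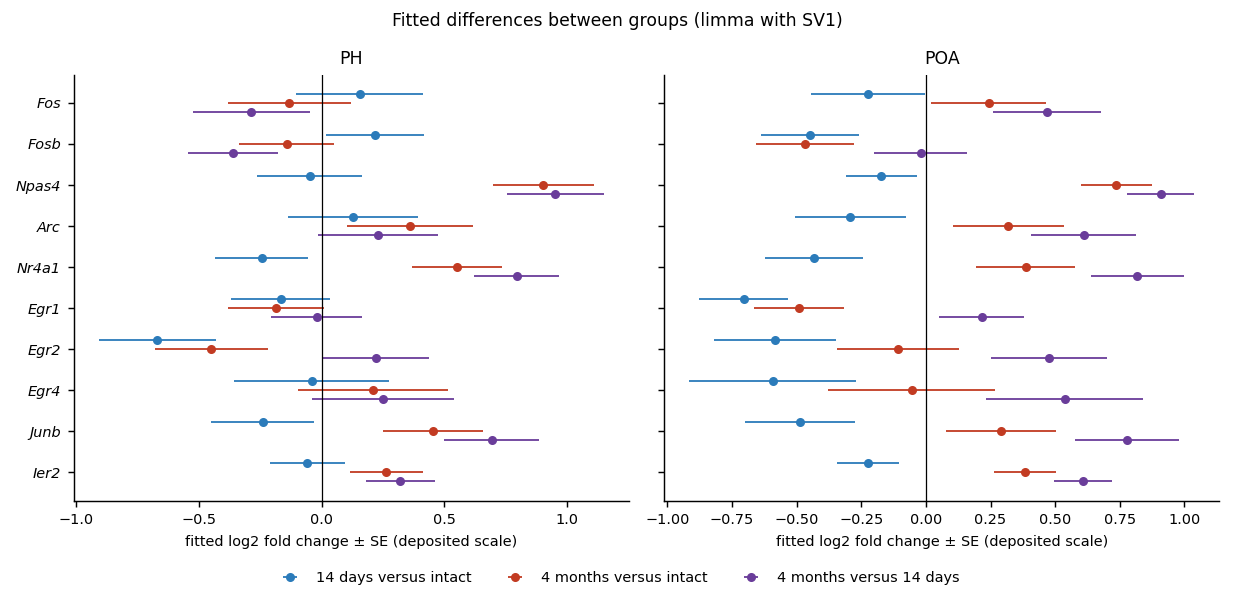
Fitted log2 fold changes with their standard errors (limma with SV1) of the 10 genes in the PH and the POA, for 14 days versus intact, 4 months versus intact and 4 months versus 14 days. *Npas4*, *Nr4a1* and *Junb* lie to the right at 4 months in both regions, and at 14 days in the POA all 10 points lie left of 0.

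By comparison, PH libraries had a median log2 fold change of the 10 genes of -0.053 at 14 days (-0.13 without replicate 5 of that group, 0.072 without intact replicate 4) and 0.24 at 4 months against intact mice (0.032 without 4-month replicates 1 and 4, which are described with the cortex markers). POA libraries had -0.44 and 0.27. Over all genes tested, the 4 medians were -0.0018, -0.0093, -0.0059 and -0.011. Between the times, the median of the 10 was 0.24 in the PH (0.024 without the same 2 libraries), with 7 positive and 3 negative, and 0.57 in the POA, with 9 positive and 1 negative. The median POA value at 4 months averages opposite differences, as 6 genes were positive and 4 negative there. The comparisons within a region share libraries, so these medians are not independent of each other.

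With an adjusted *P* under 0.05 (limma, Benjamini-Hochberg over all genes tested), *Npas4* was called at 4 months in the POA, against intact mice and against 14 days, which makes 1 of the 10 genes in each of these comparisons, and 0 of the 10 were called in the other 4. The share of all genes called was 0.0938% and 0.0281% in those 2 comparisons, 0.0319% at 4 months and 0.00911% between the times in the PH, 0.00469% at 14 days in the POA and 0.0% at 14 days in the PH. At 14 days in the PH, 0 of 21949 genes were called and 667 had an unadjusted *P* under 0.05. The genes were chosen by these same contrasts, and nothing is read from their counts. The call of *Npas4* against intact mice remained in 5 of 26 alternative fits and that between the times in 23 of 26, being lost there without a covariate and in each batch alone. It remained against intact mice in 3 of the 17 fits without 1 library.

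Groups that do not overlap were counted in the same way. At 4 months, every PH library lay above every 14-day library for *Npas4* and *Nr4a1*, as for 0.128% of all genes, and in the POA for *Ier2*, as for 0.0657%. Compared within each batch, the 4-month libraries lay above the 14-day libraries for *Npas4* and *Nr4a1* in the PH (0.333% of all genes) and for *Npas4*, *Nr4a1*, *Junb* and *Ier2* in the POA (0.249%). Against intact mice, they lay higher within each batch for *Ier2* in the POA (1.11%) and lower for *Egr1* in the POA (1.32%). The 14-day libraries lay below intact ones within each batch for *Egr2* in the PH (0.834%) and for *Egr1* in the POA (0.952%).

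Batch moved with most of the 10 genes. Among intact mice, batch 2 exceeded batch 1 for 10 of 10 genes in the PH, by 0.61 to 1.15 on the log2 scale, and for 9 of 10 in the POA, with *Ier2* at -0.023 and *Egr4* highest at 1.08. Among the PH libraries at 4 months, the same difference was -0.39 for *Fos* and 0.78 for *Egr4*. Comparisons with the intact group therefore gave higher values in batch 1 than in batch 2 for most genes. For *Fosb* at 14 days in the PH, the difference was 0.72 in batch 1 and -0.68 in batch 2. In the PH, the differences between the times, which do not use the intact libraries, were closer between the batches than both differences from intact mice for 9 of 10 genes, the exception being *Npas4* at 1.10 in batch 1 and 0.87 in batch 2 between the times. The median gap between the batches was 0.24 there, against 0.55 at 14 days and 0.62 at 4 months from intact mice. POA values did not follow this order, with 4 of 10 genes closer between the times than in both other comparisons and median gaps of 0.24, 0.34 and 0.16. *Egr4* in the POA, for example, was at 0.25 in batch 1 and 0.79 in batch 2 between the times.

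**Figure D3:**
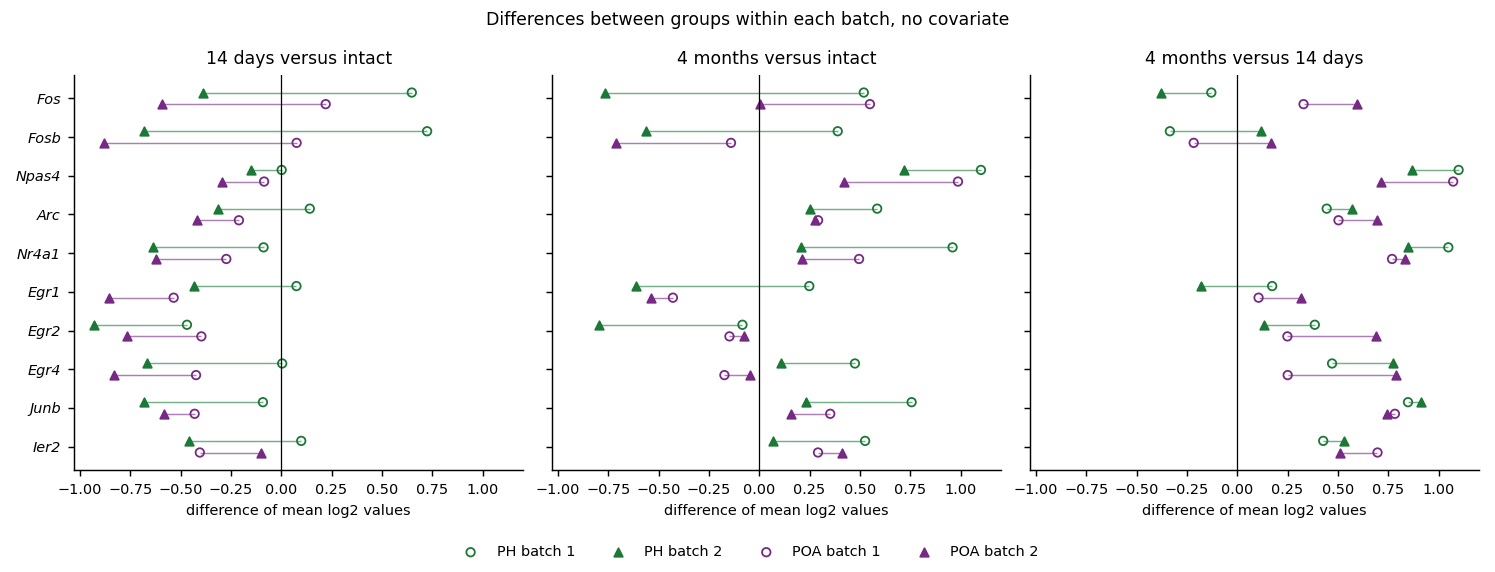
Differences of mean log2 values between groups within batch 1 (circles) and batch 2 (triangles), for each of the 10 genes in the PH (green) and the POA (purple), without a covariate. For *Npas4*, *Nr4a1* and *Junb*, 4 months against 14 days lies between 0.71 and 1.10 in both batches and regions, whereas *Fos* against intact mice in the PH lies on opposite sides of 0.

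Marker genes of other tissues were looked up beside these results. All 6 listed red cell genes (globins, *Alas2* and *Slc4a1*) had positive fitted differences in each of the 4 comparisons with intact mice, and *Alas2* was called at 4 months in the PH. Medians of these differences at 14 days were 0.57 for the PH and 0.45 for the POA, and those at 4 months 1.36 and 0.85. The summed deposited value of the list was 6542 to 8459.6 in intact, 7057 to 14641 in 14-day and 12139.6 to 37374 in 4-month PH libraries, and 7083 to 16465, 9159 to 17284 and 9607 to 22732 in the POA. *Slc4a1*, a defining red cell gene, was under 2 times the floor in 17 of 33 libraries. Cortex and hippocampus express activity genes at high levels, and 8 of the 9 listed markers of these tissues were present in every library, with sums in the PH of 30909.6 to 41512 in intact mice, 31314 to 37091 at 14 days and 26505 to 39139 at 4 months. In the POA, these sums were 26837 to 39051, 26992 to 35073 and 28873 to 43479, and most of each sum came from *Camk2n1*. Between the times, 8 of these 9 markers were positive in either region, with a PH median of 0.28, a POA median of 0.16 and 0 called. Against intact mice at 4 months, 6 of 9 were positive in the PH (median 0.29, highest 0.88) and 4 of 9 in the POA (median -0.077).

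As mean log2 values, which weight each marker alike, 2 PH libraries at 4 months stood above the others in the cortex and hippocampus list, replicate 1 at 10.2 and replicate 4 at 10.1, against 8.85 to 8.94 in the other 4 of that group, 8.79 to 9.74 in intact mice and 8.76 to 9.71 at 14 days. They also held the highest values of *Arc* in the PH, at 1943 and 1944, and replicate 4 the highest of *Npas4*, *Egr4* and *Junb*. Summed choroid plexus markers set the same 2 libraries apart, at 81811 and 30040 against 2796 to 3599 in the other 4 of that group. These sums reached 63190 in intact mice and 44862 at 14 days. Without both libraries, a fit added after seeing the data, the median of the 10 genes in the PH was 0.032 at 4 months against intact mice and 0.024 between the times. *Arc* was then at 0.04 against intact mice and -0.092 between the times, and *Egr4* at -0.11 and -0.065. *Npas4* was at 0.76 and 0.82, *Nr4a1* at 0.56 and 0.80, and *Junb* at 0.33 and 0.58. *Arc* and *Egr4* thus stood near 0 without these libraries, and *Npas4*, *Nr4a1* and *Junb* did not. This fit cannot sort the genes by cortex or choroid plexus tissue. It removed the highest PH values of *Arc*, *Egr4*, *Npas4* and *Junb*, and from the 4-month group only. Intact and 14-day libraries with means up to 9.74 and 9.71 were kept.

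Other marker lists were looked up in the same way. All 10 microglia markers were positive in each of the 4 comparisons with intact mice (medians 0.11 and 0.14 at 14 days and 0.23 and 0.15 at 4 months, for the PH and the POA), *C1qa* was called at 4 months in the POA, and the summed list was 13825 to 14982 in intact, 13942 to 16309.9 in 14-day and 15032 to 18074 in 4-month PH libraries and 14096 to 15303, 15234 to 16803 and 15064 to 18112 in the POA. All 8 mural markers were positive at 4 months in both regions (medians 0.24 and 0.21, 0 called), with sums of 8172 to 8623 in intact and 7735 to 11656 in 4-month PH libraries and of 7599.6 to 9327 and 8266 to 11166 in the POA. Thalamus markers were positive for 8 of 9 genes in the POA at both times (medians 0.25 and 0.38, 0 called) and for 1 of 9 in the PH at both times (medians -0.20 and -0.18), with POA sums of 31743 to 63952, 36606 to 71938 and 39789 to 61024. Of 8 pituitary markers, 6 were tested and 6 were positive at 14 days in the POA (median 1.99, 0 called), with a summed value of 509 to 10794 against 406 to 2164 in intact mice. Of the 9 listed striatum markers, 9 were negative at 14 days in the POA (median -0.28, 0 called). All 10 immediate early genes were negative there too. In each other comparison with intact mice, 8 of 9 striatum markers were negative. Striatum medians were -0.22 (PH, 14 days), -0.28 (PH, 4 months) and -0.16 (POA, 4 months). Medians of the 10 immediate early genes, in the same order, were -0.053, 0.24 and 0.27. The last 2 average opposite differences, as 6 of the 10 genes were positive and 4 negative at 4 months in either region. The part of these tissues in the results, and that of cortex, hippocampus and choroid plexus, was not tested.

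Rapid response genes outside the 10 were taken from lists of related genes. Of 24 feedback and signaling genes, 3 were called higher at 4 months in the POA, both against intact mice and against 14 days, and 0 lower. The share of all genes called was 0.0938% and 0.0281% in these comparisons. Like the 10 genes, the lists were chosen with earlier results of these data known. Nothing is read from this count, and the *P* values given for list genes are no independent support. *Btg2*, an antiproliferative gene that promotes mRNA decay, rose by 0.89 ± 0.113 (SE) on the log2 scale against intact mice (adjusted *P* = 0.00193, limma) and by 0.95 ± 0.107 against 14 days (adjusted *P* = 0.000595, limma). *Dusp1*, a phosphatase that switches off MAP kinases, rose by 0.68 ± 0.0914 (adjusted *P* = 0.00265, limma) and 0.69 ± 0.0862 (adjusted *P* = 0.0015, limma). *Tob1*, a relative of *Btg2*, rose by 0.28 ± 0.0515 (adjusted *P* = 0.0427, limma) and 0.32 ± 0.0486 (adjusted *P* = 0.0105, limma). In the PH, *Btg2* was 0.58 ± 0.133 from intact mice at 4 months (adjusted *P* = 0.207, limma), and 0 of the 24 genes were called. Against intact mice, the call of *Tob1* was lost in 20 of 26 alternative fits, that of *Dusp1* in 5 and that of *Btg2* in 3. Over the list, the median at 4 months was 0.075 in the PH and 0.044 in the POA, far below the fold changes of these 3 genes.

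The remaining 21 genes of this list were not called. *Zfp36*, whose protein destabilizes inflammatory mRNAs, stood at 0.68 ± 0.141 in the PH (adjusted *P* = 0.129, limma) and 0.40 ± 0.157 in the POA at 4 months, and its relative *Zfp36l2* at 0.37 ± 0.113 and 0.29 ± 0.0844. *Dusp5* and *Trib1*, both feedback genes of MAP kinase signaling, were at -0.32 ± 0.133 and -0.27 ± 0.0999 at 14 days in the POA. At that time, 18 of the 24 genes were negative in the POA (median -0.096) and 16 in the PH (median -0.036), with 0 called.

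Of 23 other rapid response transcription factors, 22 were tested and 0 were called in any of the 6 comparisons, with medians between 0.0034 and 0.099. *Klf2*, a factor of endothelial cells and quiescence, had the highest value in the PH at 4 months, at 0.78 ± 0.154 (adjusted *P* = 0.108, limma), followed by the stress gene *Atf3* at 0.55 ± 0.222. *Csrnp1* was lowest of the list in the PH at 14 days, at -0.29 ± 0.172. Both relatives of *Nr4a1* were negative in the POA at 4 months, *Nr4a3* at -0.84 ± 0.214 (adjusted *P* = 0.22, limma) and *Nr4a2* at -0.43 ± 0.296. *Egr3*, the remaining factor of the Egr family, was at -0.37 ± 0.247 at 14 days in the POA.

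Genes that respond to activity later, and that encode peptides, processing enzymes and synaptic proteins, gave 0 calls among 12, with a median at 4 months of -0.077 in the PH and -0.14 in the POA. *Ptgs2*, the inducible cyclooxygenase, was at 0.82 ± 0.422 at 4 months in the PH and at 0.78 ± 0.195 in POA libraries (adjusted *P* = 0.199, limma). *Vgf*, a secreted peptide precursor induced by neurotrophins, was at -0.45 ± 0.102 in the POA (adjusted *P* = 0.134, limma), and *Homer1*, a scaffold of glutamate receptors, at -0.22 ± 0.112 in the PH. *Pcsk1*, a prohormone convertase, was at 0.32 ± 0.153 in the PH at 14 days.

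Upstream of the 10 genes, 27 kinases, channels and transcription factors gave 0 calls, with values at 4 months between -0.24 and 0.27 in the PH and between -0.26 and 0.17 in the POA. *Crebbp*, a coactivator of CREB, was at 0.27 ± 0.116 in the PH at 4 months, and *Crtc1*, another CREB coactivator, at 0.27 ± 0.242. *Camk4*, a calcium-dependent kinase of the nucleus, was at -0.26 ± 0.0749 and the L-type calcium channel gene *Cacna1c* at 0.17 ± 0.141 in the POA. At 14 days, *Mef2c*, a transcription factor of activity-dependent genes, was at -0.28 ± 0.195 in the PH, and *Ppp3ca* (calcineurin) and *Camk2a* (calcium/calmodulin kinase) were at -0.26 ± 0.0822 and -0.22 ± 0.128 in the POA.

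Heat shock genes, which respond to temperature and protein stress, had their higher values at the other time. At 14 days, 9 of 9 were positive in the PH (median 0.10) and 8 of 9 in the POA (median 0.062), with *Hspa1b* at 0.49 ± 0.247 and 0.40 ± 0.189, *Hspa1a* at 0.31 ± 0.178 in the POA and *Bag3* at 0.33 ± 0.0949 in the PH. Against 14 days, the 4-month libraries were negative for 8 of 9 PH genes and for 9 of 9 POA genes, and *Hsph1* and *Dnajb1* were at -0.18 ± 0.0626 and -0.13 ± 0.109 against intact mice in the POA. No gene of the list was called, with 0 of 9 in each comparison. Clock genes, of which 12 of 13 were in the table, gave 0 calls as well, with medians between -0.068 and 0.011. *Per1*, which is both a clock gene and a rapid response gene, was at -0.30 ± 0.127 at 4 months in the PH and at -0.31 ± 0.102 in POA libraries (adjusted *P* = 0.356, limma). In the PH, *Ciart* was at -0.39 ± 0.13 at 14 days and *Nr1d2* at -0.15 ± 0.0673 at 4 months, and *Per2* was at -0.14 ± 0.0744 at 4 months in the POA.

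**Figure D4:**
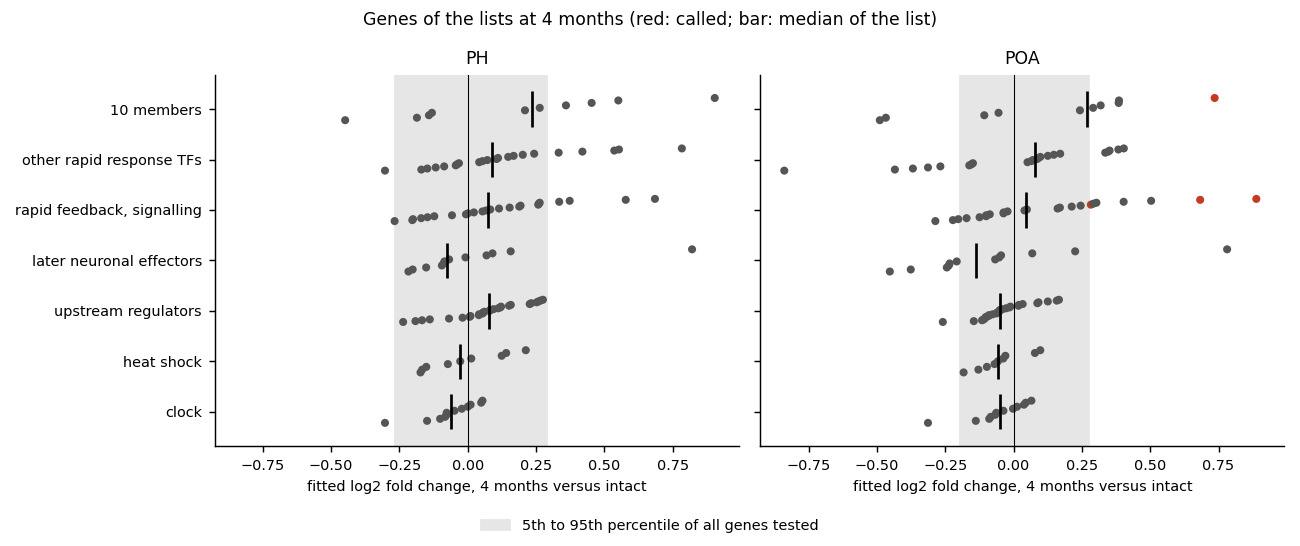
Fitted log2 fold changes at 4 months versus intact of the 10 genes and of 6 lists of related genes, in the PH and the POA, with 1 point per gene, red points for genes called, a bar at the median of each list and grey for the range of all genes tested without the lowest and the highest 5%. Called points are *Npas4*, *Btg2*, *Dusp1* and *Tob1*, all in the POA, and the medians of the 6 lists lie near 0.

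Libraries of 1 group also differed in the 10 genes, and whether they differed together was asked after the means of group and batch were subtracted from the log2 values. Over the 45 pairs of genes, Pearson's r was positive in 37 pairs of the PH (median 0.41, from -0.41 to 0.97) and in 29 pairs of the POA (median 0.30, from -0.71 to 0.90). The closest pair of the PH was *Arc* and *Egr4*, at 0.97, and their r was 0.88 in the POA. *Egr1* and *Junb*, the closest in the POA at 0.90, had 0.66 in the PH. *Npas4* and *Ier2* had an r of 0.62 with each other in the POA and -0.046 in the PH. In the POA, both had a negative r with each of the other genes. There, r of *Npas4* with *Egr1*, *Egr2* and *Egr4* was -0.58, -0.47 and -0.40, against 0.57, 0.78 and 0.56 in the PH. *Ier2* had an r of -0.71 with *Egr1* in the POA and 0.038 in the PH. These pairs are descriptions over 16 and 17 libraries, which share dissection and library preparation. SV1 was not removed from them. They include PH 14-day replicate 5, the library that stood apart. It held the lowest values of its group for *Arc* (576), *Egr4* (90.2), *Fosb* (139.9) and *Ier2* (112). They also include PH 4-month replicates 1 and 4, high in cortex markers, and r of the pairs without these libraries was not computed.

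**Figure D5:**
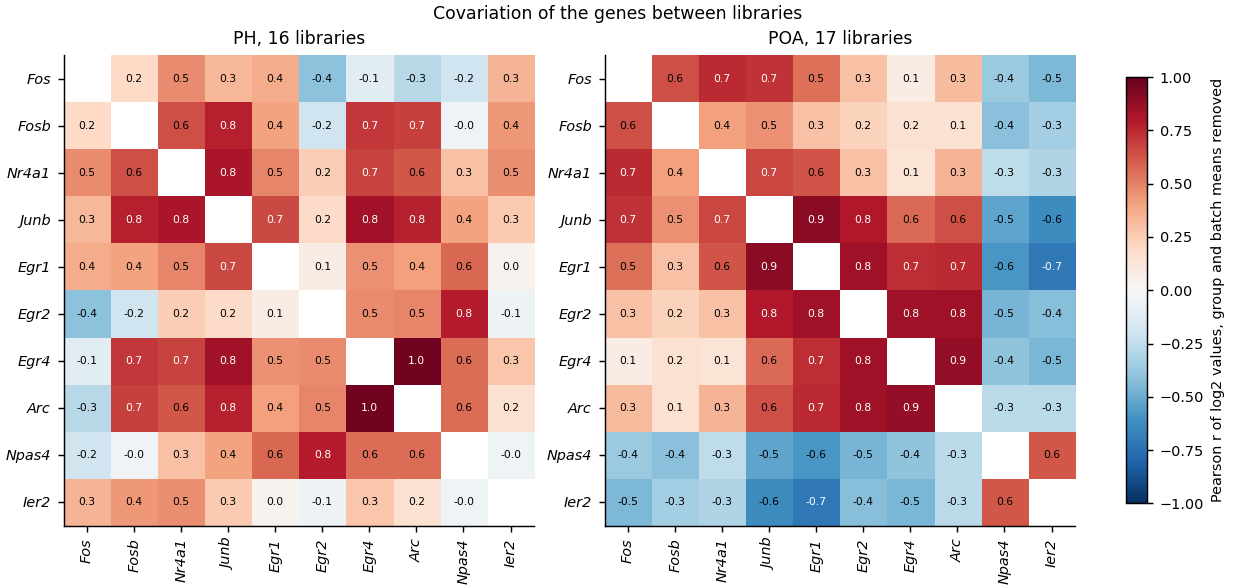
Pearson's r between the log2 values of each pair of the 10 genes, after group and batch means were removed, over 16 PH and 17 POA libraries, from -1 (blue) to 1 (red). *Npas4* and *Ier2* form a blue band with the other 8 genes in the POA, where r of *Egr1* with *Ier2* is -0.71, whereas most squares of the PH are red.

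*Fos* was tested against each of the other 9 genes in either region, 18 relations in all, by 100000 permutations of libraries within group and batch, two-sided. In the POA, *Fos* varied with *Nr4a1* (Pearson's r = 0.75, permutation *P* = 0.00144, adjusted *P* = 0.0136; Spearman's rho = 0.71, permutation *P* = 0.00207, adjusted *P* = 0.0186; n = 17). It also varied with *Junb* (Pearson's r = 0.72, permutation *P* = 0.00151, adjusted *P* = 0.0136; Spearman's rho = 0.80, permutation *P* = 0.00035, adjusted *P* = 0.0063). Without the 2 libraries farthest from the median of *Fos*, r was 0.74 with *Nr4a1* and 0.70 with *Junb*. Within the batches, r with *Nr4a1* was 0.58 and 0.87, and r with *Junb* 0.66 and 0.78. The other 16 relations did not pass after correction, among them *Fosb* (r = 0.64, permutation adjusted *P* = 0.202; rho = 0.66, permutation adjusted *P* = 0.107) and *Egr1* (r = 0.55, permutation adjusted *P* = 0.202; rho = 0.65, permutation adjusted *P* = 0.0919) in the POA. In the PH, r with *Nr4a1* was 0.47 (permutation adjusted *P* = 0.303) and r with *Junb* 0.33 (permutation adjusted *P* = 0.492).

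Outside the 10, the genes whose log2 values were most like the mean of the 10 genes, again without group and batch means, were *Inka1* (r = 0.94), *Inafm2* (0.94), *Ssbp4* (0.93) and *BC004004* (0.92) over the 16 PH libraries. In the POA, they were *Oaf* (r = 0.93), *Tiparp* (0.91), *Zfp266* (0.90) and *Usp38* (0.89) over 17 libraries. Over all genes tested, r was above 0.68 in the PH and above 0.56 in the POA for 5% of genes. SV1 was not removed here either, and PH 14-day replicate 5 was included. None of the genes named was among the 25 most alike in the other region, and their r there was not looked up.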

How the data were processed

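Bulk poly(A) RNA-seq of the PH and POA of female mice was analyzed, 33 libraries whose labels give region and time. The authors prepared stranded libraries, pseudoaligned reads with kallisto (mm39), summarized them with tximport and used DESeq2 and smartSVA. The step that led to the deposited table is not given in the sources used here. Its values are a normalized, decimal signal (0.000219% whole numbers), so depth and counting error are unknown, and the count test planned first was replaced by limma.

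Log2 values of the deposited signal, without a pseudocount, were fitted per region with limma (version 3.58.1, R 4.3.3, trend and robust variances) on the 3 groups and SV1, estimated by iterative reweighting in 5 rounds. Genes reaching 2 times the floor in at least 4 (PH) or 5 (POA) libraries were tested, 21949 and 21320, with Benjamini-Hochberg adjustment. The 1259 entries without a name were left out. The fit was tested on simulated data. If libraries of a group were not separate animals, *P* values measure technical spread.

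The members, lists and tests were chosen with earlier results of these data known. Genes named are the 10 members, in each list every gene called and the 2 with the largest absolute fold change against intact mice at each time and region, and the 5 most alike per region, of which 1 in each region is not reported here. Marker genes and 1 overlapping gene are named in addition. Alternatives were other covariates, the replicate number as a block, no filter, a pseudocount of 10, only the 2 groups compared, each library left out and, added after seeing the data, single batches and the PH without 2 libraries high in cortex markers. Gene positions and promoter windows are from GENCODE M39 and RefSeq on GRCm39. Permutations and figures used Python 3.11.15 with numpy 2.4.6, scipy 1.17.1 and matplotlib 3.10.9.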

Additional observations from a re-analysis of the deposited data

Results flagged for a closer look

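Among 78 groups of 4 to 6 libraries (the 10 genes and 3 marker sums), 8 held a library far from the others by Dixon's criterion, which chance gives in about 1 of 20 groups. POA replicate 4 at 14 days was highest for *Arc*, at 1798 against 942.5 for the next library, and for *Egr4*, at 447 against 158. POA replicate 4 at 4 months was highest for *Egr1*, at 3935 against 2884, and for *Fosb*, at 378 against 276. Both libraries belong to batch 2.

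The summed cortex and hippocampus markers were 43479 in POA replicate 3 at 4 months, against 34274 for the next. The summed neuron markers were 488450.0 in PH replicate 5 at 14 days, against 378426. For red cell genes, the sum was 37374 in PH replicate 3 at 4 months, against 21237, and 16465 in intact POA replicate 5, against 8632. The part of these libraries in the differences of the 10 genes is given by the fits without single libraries.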

How the results depend on the processing

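The median log2 fold change of the 10 genes kept its sign in every planned fit with all libraries. It moved there by less than the SD, between libraries of a group, of their median log2 value over the 10 genes. With batch 2 alone, the PH median at 14 days was -0.55. Leaving out 1 library, the PH medians lay between -0.196 and 0.072 at 14 days (0.072 without intact replicate 4), between 0.094 and 0.40 at 4 months and between 0.15 and 0.38 between the times, and the POA medians between -0.58 and -0.32, 0.090 and 0.35, and 0.46 and 0.67. Counts of genes called moved more. Without SV1, PH counts were 4 at 4 months and 0 between the times. POA counts were then 0 at 14 days, 2 at 4 months and 1 between the times. Batch in place of SV1 gave 3 and 0 in the PH at 4 months and between the times. SV1 and batch together gave 1 between the times in the PH and 2 at 14 days in the POA. With no filter, PH counts were 1 at 14 days and 0 between the times, and the POA count at 4 months was 8. With only the 2 groups compared, counts were 2 at 14 days and 1 between the times in the PH, and for the POA 0 at 14 days and 2 at 4 months.

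Batch 1 alone gave 1 gene in the PH at 4 months and 0 in the 3 POA comparisons, and batch 2 alone gave 0 at 4 months and between the times for the PH and 0 in the 3 POA comparisons. With a replicate block, PH counts were 1 at 14 days and 1 between the times, and POA counts 0 at 14 days and 1 at 4 months. In that fit, the call of *Npas4* in the POA was lost against intact mice and kept between the times. Libraries with the same number deviated together (r over 0.1) in 9 of 14 PH pairs (median r 0.15) and 14 of 16 POA pairs (median 0.26). Pairs of another number in the same batch did so in 17 of 30 (median 0.15) and 32 of 34 (median 0.28), and pairs of different batches in 3 of 40 and 0 of 46. Since not every pair was over 0.1, the numbers were not taken as pairs. Without PH 4-month replicates 1 and 4, 4 genes were called at 4 months in the PH and 1 between the times. Leaving out 1 library, PH counts were 0 to 1 at 14 days (1 without 4-month replicate 5), 5 to 14 at 4 months (11 without 4-month replicate 2, 14 without replicate 3) and 1 to 3 between the times, where 10 of 16 libraries brought 2 down to 1. POA counts were 0 to 1 at 14 days (0 without 14-day replicate 4 or 5, or intact replicate 1, 3 or 4), 4 to 37 at 4 months (4 without intact replicate 1 or 4-month replicate 6, 37 without 14-day replicate 6) and 3 to 7 between the times (3 without 14-day replicate 2 or 3). At 4 months in the POA, each library but intact replicate 4 and 4-month replicate 5 moved the count by over 1.5 times. For *Fos*, 4 of 18 relations passed when group means only were subtracted, and 0 in batch 1 or batch 2 alone. A batch holds 2 or 3 libraries per group, which allows few permutations. A single relation could not pass there after correction, so nothing is read from this 0. Of the values of the 10 genes under alternatives, 1543 moved by less than the spread between libraries and 17 by more, which is a measure of size and not of calls. Of those of the other genes named, 5385 stayed on their side of the threshold, 69 lost and 6 gained a call. No called value of these was reversed, and the cause of these moves was not tested. Depth is unknown and sets no limit that could be stated.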
